A study of Mus musculus with 6 samples.

Results

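Toll-like receptors are membrane proteins that bind molecules of microbes, and some also bind nucleic acids of the host. The 10 receptor genes described here are Tlr1 to Tlr9 and Tlr13, chosen by name, and all 10 were found among the 35275 gene identifiers of the deposited count table. They were measured by poly-A RNA sequencing in livers of p16-Cre/Rosa26-mTmG mice at 1 year of age. Magnetic beads against CD31, which endothelium, platelets and many leukocytes display, enriched the cells. Flow sorting by GFP then gave 3 GFP-positive and 3 GFP-negative libraries. Both groups carry the same alleles: Cre recombinase under the p16 gene, and at Rosa26 a membrane reporter whose colour changes from red to green once Cre has acted. Green cells are therefore those that used the p16 promoter at some time, or that descend from such cells, and the reporter does not show whether p16 was on when they were sorted. The labels name no animal, batch or pairing, so the p-values cover the spread among these 6 libraries only, part or all of which may be technical. The labels also describe growth of such cells in endothelial medium, and whether the libraries preceded or followed it was not given in the sources used here.

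Each receptor has an ectodomain of leucine-rich repeats and an intracellular TIR domain, through which it recruits adaptors such as MyD88 or TRIF. Tlr1, Tlr2, Tlr4, Tlr5 and Tlr6 act mainly at the cell surface, and Tlr3, Tlr7, Tlr8, Tlr9 and Tlr13 in endosomes, where proteases trim them. In the liver, receptors of this family are carried by Kupffer cells, the resident macrophages, by sinusoidal endothelium and by lymphocytes, which all meet bacterial products arriving from the gut.

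Transcripts of Tlr13 were higher in GFP-positive libraries, and this was the only one of the receptors to pass the test. Of the 10 receptors, 6 passed the filter on low counts (Tlr1, Tlr2, Tlr3, Tlr4, Tlr7 and Tlr13) and 4 did not (Tlr5, Tlr6, Tlr8 and Tlr9). Genes were tested by the quasi-likelihood method of edgeR, with p-values adjusted by Benjamini and Hochberg's procedure over all 12122 genes that passed the filter and a threshold of 0.05. Of those genes 17.8% passed in either direction, and beside this background 1 of 6 is no result about the family. When 1 library was left out, the share called was lower: 7.82%, 8.03% and 8.18% on leaving out the GFP-negative libraries 1 to 3 in turn, and 12.6%, 11.8% and 14% on leaving out the GFP-positive ones. Tlr2 lay above and Tlr1 and Tlr9 lay below the GFP-negative libraries without overlap. Tlr2 and Tlr1 did not pass the test, and Tlr9 was not tested. Of all genes tested, 42.4% had groups that did not overlap. Tlr13 also lay above the GFP-negative libraries without overlap. Tlr5 had 0 counts in all 6 libraries, and Tlr3, Tlr4, Tlr6, Tlr7 and Tlr8 overlapped between the groups.

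The libraries held 16766556 to 22627555 counts, over 14819 to 15359 detected genes in the GFP-negative and 13012 to 13369 in the GFP-positive group. Transcripts of Cdkn2a, whose products include p16, were found in the GFP-positive libraries (15, 27 and 7 counts) and not in the GFP-negative ones (0 counts each). The count is for the whole gene, which did not pass the filter on low counts and was not tested. The 10 receptors together took 0.0161% to 0.0257% of all counts in GFP-positive and 0.00579% to 0.00933% in GFP-negative libraries. Markers of whole cell types differed between the groups in the same libraries. The summed level of 10 Kupffer cell markers was 14084 to 15138 CPM (counts scaled by library size) in GFP-positive libraries against 1414 to 1529 CPM in GFP-negative ones, and 9 of the 10 were called higher. The 12 macrophage and monocyte markers summed to 15236 to 15852 against 1011 to 1328 CPM, with 8 of 11 tested called higher and 1 lower. The B cell markers summed to 93.0 to 170.2 against 13208 to 14433 CPM, and all 9 measured were called lower. The 10 sinusoidal endothelial markers summed to 11532 to 12908 against 4655 to 5300 CPM, with 9 called higher. The 12 pan-endothelial markers summed to 4136 to 4793 against 2047 to 2234 CPM, with 7 called higher, and Pecam1, which encodes CD31, stood at 453 ± 58.5 against 342 ± 41.0 CPM (SD, n = 3 each; edgeR adjusted p = 0.123). Hepatocyte markers summed to 1040 to 1427 against 2076 to 2358 CPM, with 4 of 7 lower. Of the others, stellate cell and fibroblast markers summed to 157.7 to 237.4 against 28.2 to 100.6 CPM and neutrophil markers to 17.4 to 28.8 against 5.94 to 12.1 CPM, with 0 of 4 tested members called in each list and Ly6g and Elane at 0 in every library. The dendritic cell list summed to 83.3 to 142.8 against 3096 to 3636 CPM, in the GFP-negative libraries nearly all of it Ccr7, which lymphocytes also carry, and 1 of 6 tested members was lower. In such bulk samples, fewer cells of a type and less RNA per cell cannot be told apart, and the part of these markers in the receptor values was not tested.

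**Figure D1:**
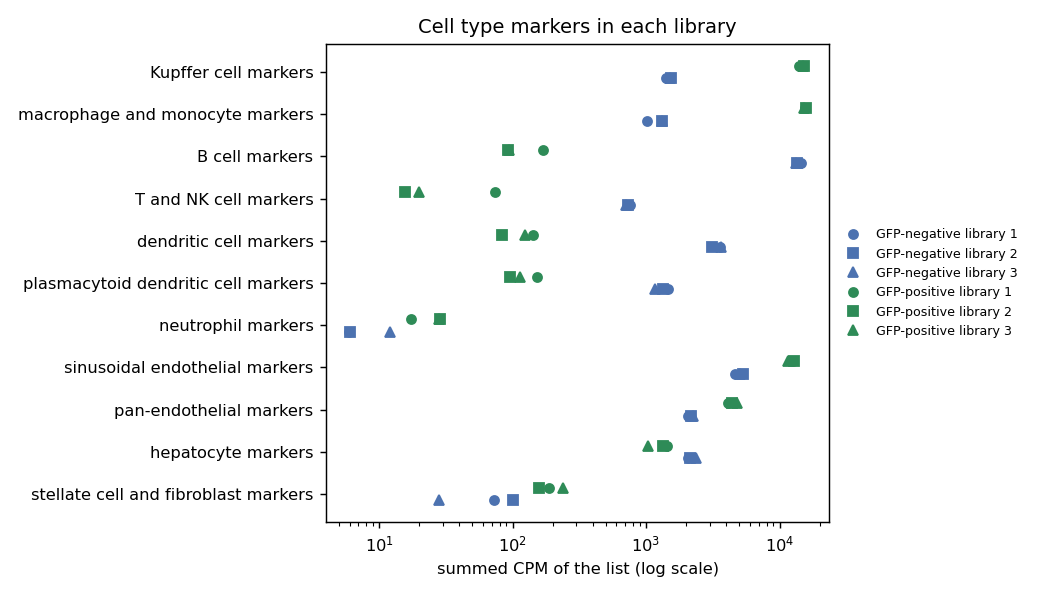
Summed CPM of the markers of each cell type (horizontal log axis) in each of the 6 libraries. Green points are GFP-positive and blue points GFP-negative libraries, and the point shape gives the library number. The GFP-positive libraries sit between 14084 and 15138 CPM for Kupffer cell markers and between 93.0 and 170.2 CPM for B cell markers, where the GFP-negative libraries sit between 13208 and 14433 CPM.

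The sequences before the gene starts are shown for the 4 receptors whose groups did not overlap. The capitals mark matches to any of 5 motifs: GAGGAA, the core bound by PU.1 and related ETS factors of myeloid cells and B cells, TGANTCA, bound by AP-1, GGGNNNNNCC, bound by NF-kappaB, CACGTG, an E-box, and GAAANNGAAA, the interferon-stimulated response element. All were searched on both strands over the 250 bases before the start of transcription, in windows from RefSeq on build GRCm38.p6, which hold 8 of the 10 receptors.
Tlr13 (chrX:106143025-106143274, + strand): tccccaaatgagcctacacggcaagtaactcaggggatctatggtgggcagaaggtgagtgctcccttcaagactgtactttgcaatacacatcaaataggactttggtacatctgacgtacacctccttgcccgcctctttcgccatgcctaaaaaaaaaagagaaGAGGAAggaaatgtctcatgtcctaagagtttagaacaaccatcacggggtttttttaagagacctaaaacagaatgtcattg
Tlr2 (chr3:83841609-83841858, - strand): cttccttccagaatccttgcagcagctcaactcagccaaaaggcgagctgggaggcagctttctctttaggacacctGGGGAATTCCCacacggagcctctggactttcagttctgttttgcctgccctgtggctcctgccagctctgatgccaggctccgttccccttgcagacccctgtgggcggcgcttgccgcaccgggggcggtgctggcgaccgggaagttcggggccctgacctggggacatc
Tlr1 (chr5:64933559-64933808, - strand): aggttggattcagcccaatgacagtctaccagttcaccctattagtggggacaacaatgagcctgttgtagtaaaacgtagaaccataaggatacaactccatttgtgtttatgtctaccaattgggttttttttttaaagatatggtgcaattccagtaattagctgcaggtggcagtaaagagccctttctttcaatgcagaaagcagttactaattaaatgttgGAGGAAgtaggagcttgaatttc
Tlr9 (chr9:106222348-106222597, + strand): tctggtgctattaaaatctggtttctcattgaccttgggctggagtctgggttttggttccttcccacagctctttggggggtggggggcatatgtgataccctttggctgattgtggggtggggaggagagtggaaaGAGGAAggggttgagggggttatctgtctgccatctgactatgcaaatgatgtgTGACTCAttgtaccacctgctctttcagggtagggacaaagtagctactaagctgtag
The windows of Tlr13, Tlr1 and Tlr9 each held 1 GAGGAA, which 23.3% of 32841 windows of the same length held. For Tlr1 the window shown is that of the outer of its pair of RefSeq starts, and the window of the inner start held no GAGGAA and 1 CACGTG. A stretch just after each Tlr1 start was not found in the Tlr1 transcripts of GENCODE M21. The like stretches of Tlr13, Tlr2 and Tlr9 were found in theirs. The window of Tlr2 held 2 overlapping matches to GGGNNNNNCC, a pattern found in 45.8% of windows, and no GAGGAA. The window of Tlr9 also held a TGANTCA, found in 6.75% of windows. CACGTG was in 6.02% and GAAANNGAAA in 2.98% of windows, and neither was in the 4 windows shown. Receptors whose windows are not shown held such matches too. The window of Tlr8, whose groups overlapped, held 1 GAGGAA. GGGNNNNNCC was in the windows of Tlr3 and Tlr5 and in 1 window of Tlr6, and another window of Tlr6 held 2 matches to GAAANNGAAA. These are matches of letters and not sites shown to be used.

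Tlr13 (ENSMUSG00000033777) in the mouse binds bacterial ribosomal RNA in endosomes. It held 616, 321 and 944 counts in GFP-positive libraries 1 to 3 (38.2, 18.7 and 52.3 CPM) and 3, 1 and 0 counts in GFP-negative libraries 1 to 3. The groups were far apart, with the lowest GFP-positive library at 321 counts and the highest GFP-negative library at 3. The means were 36.4 ± 16.9 and 0.0701 ± 0.0786 CPM (SD, n = 3 each). On the log2 scale edgeR put the difference at 8.92 ± 1.21 (SE), with an adjusted p of 0.00401. Set against the pooled GFP-negative level, 4 counts over the summed library sizes of that group, the GFP-positive mean was 549.9 times as high, with an exact 95% counting interval of 214.8 to 2018 that covers counting error in the low group only. The call held whichever library was left out (adjusted p of 0.00708 to 0.0263). Leaving out GFP-negative library 1 gave the highest log2 fold change, 10.15, and leaving out GFP-negative library 3 the lowest, 8.33.

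Tlr13 also stood apart when it was set against the Kupffer cell markers of its own library. This scale was chosen after the values were seen. Id3, the 1 Kupffer cell marker not called, gave 566, 512 and 411 CPM of the GFP-negative sums of 1414, 1529 and 1512 CPM. In GFP-positive libraries Id3 gave 799, 774 and 595 CPM of sums of 14084 to 15138 CPM. Per 100000 counts of those markers, GFP-positive libraries held 271.0, 123.5 and 346.4 counts of Tlr13, and GFP-negative libraries held 11.0, 3.61 and 0. The groups did not overlap on this scale either. The Kupffer cell markers had a median log2 fold change of 3.92, with 4.48 as the highest, and the macrophage and monocyte markers one of 3.60. The part of Kupffer cell content in the Tlr13 values was not tested. Among the genes tested, the 3 whose pattern over the 6 libraries was most like that of Tlr13 were Rab7b, a GTPase of late endosomes, Bend6, and Havcr2, the receptor TIM-3. Their root-mean-square differences from Tlr13, in log2 CPM centred on each gene's mean, were 0.430, 0.468 and 0.549. Rab7b held 326, 362 and 770 counts in GFP-positive and 5, 4 and 1 in GFP-negative libraries. Bend6 held 491, 177 and 844 against 5, 7 and 1 counts. Havcr2 held 320, 454 and 557 against 1, 5 and 0 counts. All 3 were thus nearly confined to GFP-positive libraries, as the choice by likeness requires.

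**Figure D2:**
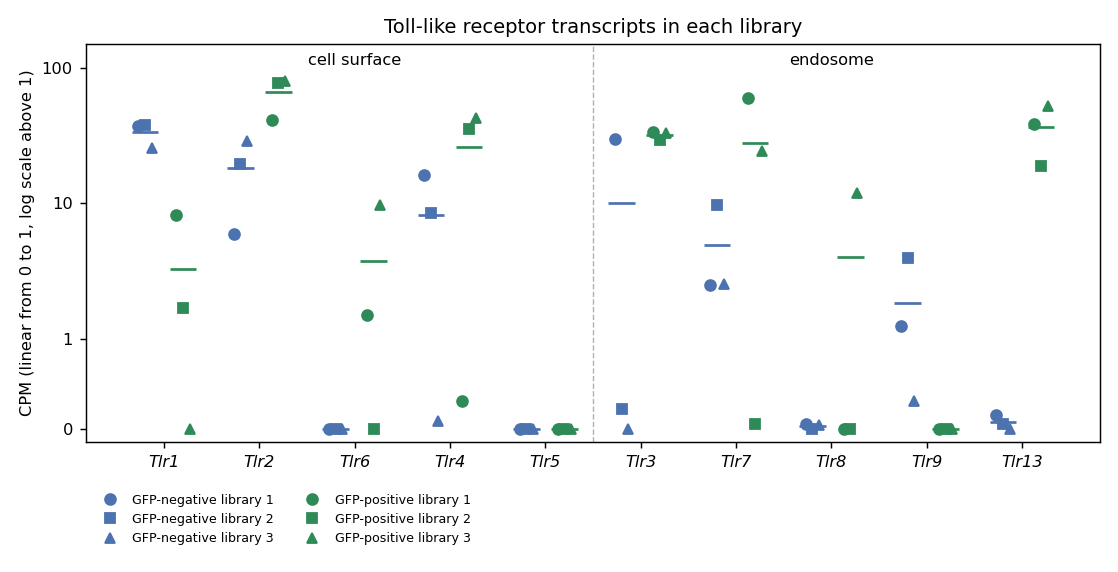
CPM of each receptor (vertical axis, linear from 0 to 1 and log above) in each library, for surface receptors on the left and endosomal receptors on the right. Points are single libraries, with the library number as the point shape, and horizontal lines are means of 3 libraries. Tlr13 lies at 18.7 to 52.3 CPM in GFP-positive and at most 0.155 CPM in the GFP-negative libraries, whereas Tlr4 and Tlr7 each hold a GFP-positive library near 0.

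Among the surface receptors, Tlr2 (ENSMUSG00000027995) was the most abundant in GFP-positive libraries. It pairs with Tlr1 or Tlr6 to bind bacterial lipoproteins. Tlr2 held 41.0, 76.9 and 80.4 CPM in GFP-positive libraries and 5.94, 19.6 and 28.6 CPM in GFP-negative libraries. Every GFP-positive library was above every GFP-negative library, as for 18.5% of all genes tested. The log2 fold change was 1.87 ± 0.61 (SE) and did not pass (edgeR adjusted p = 0.0812, and 0.0904 to 0.187 with 1 library left out). DESeq2, which called 28.4% of its 13339 genes against edgeR's 17.8%, called Tlr2 (adjusted p = 0.0140). Per 100000 counts of Kupffer cell markers, Tlr2 stood at 290.8, 508.0 and 532.5 in GFP-positive and at 420.4, 1280 and 1894 in GFP-negative libraries. On that scale, which includes Id3, the groups overlapped and the GFP-negative libraries held the highest values. Per 100000 counts of sinusoidal endothelial markers, Tlr2 overlapped too, at 323.3, 595.8 and 697.1 in GFP-positive and 127.7, 369.5 and 566.7 in GFP-negative libraries. Per 100000 counts of B cell markers, all GFP-positive libraries were above (24071 to 85153 against 41.2 to 216.8). The part of cell types in the Tlr2 values was not tested.

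Tlr1 (ENSMUSG00000044827), the partner of Tlr2 for triacylated lipoproteins, had the opposite order. It held 131, 29 and 0 counts in GFP-positive libraries (8.12, 1.69 and 0 CPM) and 720, 680 and 584 counts in GFP-negative libraries (37.2, 37.5 and 25.4 CPM). All GFP-positive libraries were below all GFP-negative ones, as for 23.9% of all genes tested. The GFP-positive libraries differed widely among themselves, and the log2 fold change of -3.35 ± 1.54 (SE) did not pass (edgeR adjusted p = 0.201). It was -5.29 without GFP-positive library 1 (adjusted p = 0.102) and -2.77 without GFP-positive library 3 (adjusted p = 0.0799). The 3 tested genes most like Tlr1 over the 6 libraries were Chpf, an enzyme of chondroitin synthesis, Trbc2, a constant region of the T cell receptor, and Arhgap15, a regulator of Rac. Their root-mean-square differences were 0.322, 0.328 and 0.329 in centred log2 CPM. Trbc2 held 127, 42 and 0 counts in GFP-positive and 736, 596 and 1003 in GFP-negative libraries. The T and NK cell markers summed to 15.5 to 73.7 CPM in GFP-positive libraries and 709.9 to 761.8 CPM in the GFP-negative ones. Of those markers, 2 of 8 tested were called lower. GFP-positive library 1, the highest of its group for Tlr1 and Trbc2, had the highest sum of its group for them, 73.7 CPM, of which Gzma gave 38.7 CPM, and for B cell markers, 170.2 CPM. GFP-positive libraries 2 and 3, at 29 and 0 counts of Tlr1, had the opposite order for these sums. Their T and NK cell sums were 15.5 and 20.1 CPM, and their B cell sums 93.0 and 94.4 CPM. Single markers differed, with Cd2 and Cd3g highest in GFP-positive library 3 and Nkg7 in library 2. The part of lymphocytes in the Tlr1 values was not tested.

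Tlr6 (ENSMUSG00000051498), the partner of Tlr2 for diacylated lipoproteins, was seen in 2 of the 6 libraries. It held 24, 0 and 174 counts in GFP-positive libraries and 0 counts in each GFP-negative library. Against a floor of 3 counts over the GFP-negative group, the mean of 3.71 ± 5.19 CPM (SD, n = 3) was at least 74.7-fold higher, but GFP-positive library 2 was at 0 too. Tlr6 was too low for the filter, and without the filter edgeR gave an adjusted p of 0.181, while DESeq2 gave 0.0440. Tlr1 and Tlr6 share stretches of sequence: 12.3% of the distinct runs of 50 bases in Tlr6 transcripts also occur in Tlr1 transcripts (GENCODE M21). For Tlr1 transcripts the share is 13.6%. The counting could divide or drop shared reads, and how far this moved either count was not tested. With 0.5 added to each count, the log2 ratio of Tlr1 to Tlr6 within a library was 10.2 to 10.5 in GFP-negative libraries and 2.42, 5.88 and -8.45 in GFP-positive libraries. Where 1 of the pair had 0 counts, as Tlr6 in the GFP-negative libraries and GFP-positive library 2 and Tlr1 in GFP-positive library 3, the size of the ratio is set by the added 0.5. The ratios of the groups do not overlap, and the exact two-sided permutation test over libraries gave p = 0.1, the smallest that 3 against 3 allow (0.25 adjusted over the 5 ratios computed). With Tlr1 lower in every GFP-positive library and Tlr6 at 0 in every GFP-negative one, this outcome was fixed by the single genes and adds no support.

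Tlr4 (ENSMUSG00000039005), the receptor for bacterial lipopolysaccharide, varied more within the groups than between them. GFP-positive libraries held 5, 606 and 772 counts (0.310, 35.3 and 42.8 CPM), and GFP-negative libraries held 311, 154 and 2 counts (16.1, 8.50 and 0.0871 CPM). Each group had 1 library with at most 5 counts, so the groups overlapped, although GFP-positive libraries 2 and 3 were above all GFP-negative ones. The log2 fold change of 1.67 ± 1.79 (SE) did not pass (edgeR adjusted p = 0.606), and its size does not bear a direction. The log2 ratio of Tlr4 to Tlr2 within a library ran from -6.91 to -0.91 in GFP-positive and from -8.04 to 1.43 in GFP-negative libraries (exact permutation p = 1). Tlr5 (ENSMUSG00000079164), which binds flagellin, had 0 counts in all 6 libraries. A floor of 3 counts over a group is 0.0584 CPM for the GFP-positive and 0.0496 CPM for the GFP-negative group, so a lower level was not detectable at this depth.

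Among the endosomal receptors, Tlr3 (ENSMUSG00000031639) binds double-stranded RNA. It was the steadiest receptor in GFP-positive libraries, at 541, 506 and 593 counts (33.5, 29.5 and 32.9 CPM). The GFP-negative libraries held 581, 4 and 0 counts, so 1 of them was at the GFP-positive level and the other 2 were near 0. The log2 fold change of 1.66 ± 1.93 (SE) did not pass (edgeR adjusted p = 0.638). Without GFP-negative library 1 it was 8.16 and passed (adjusted p = 0.0337), so that library decides the value. An unstranded count could include Gm45542, an antisense gene that overlaps 7.32% of the Tlr3 exons in GENCODE M21, and the strand setting of the counting was not given in the sources used here.

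Tlr7 (ENSMUSG00000044583) and Tlr8 (ENSMUSG00000040522) bind single-stranded RNA. Tlr7 held 968, 1 and 435 counts in GFP-positive libraries (60.0, 0.0583 and 24.1 CPM) and 48, 175 and 58 counts in GFP-negative libraries (2.48, 9.65 and 2.52 CPM). GFP-positive libraries 1 and 3 were above all GFP-negative libraries and library 2 was below them all. The log2 fold change of 2.52 ± 1.68 (SE) did not pass (edgeR adjusted p = 0.379, or 0.0716 with a value of 3.11 without GFP-positive library 2). Tlr8 had its counts in 1 library, with 0, 0 and 215 in GFP-positive and 1, 0 and 1 in GFP-negative libraries. The GFP-positive mean was 120.0 times the pooled GFP-negative level of 2 counts over the summed library sizes (exact 95% counting interval of 33.2 to 990.9), and this rests on GFP-positive library 3 alone. The log2 ratio of Tlr7 to Tlr8 overlapped between the groups, with an exact permutation p of 0.6.

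Tlr9 (ENSMUSG00000045322), which binds unmethylated CpG DNA and is well known from B cells and plasmacytoid dendritic cells, was seen in the GFP-negative libraries alone. It held 24, 71 and 7 counts there (1.24, 3.92 and 0.305 CPM) and 0 counts in each GFP-positive library. The GFP-negative mean of 1.82 ± 1.87 CPM (SD, n = 3) was at least 31.2-fold higher than a floor of 3 counts over the GFP-positive group. Tlr9 did not pass the filter. Without the filter edgeR gave an adjusted p of 0.159, when 9.29% of 18839 genes passed, and DESeq2 gave 0.0261, when 28.4% of its genes passed. The order of Tlr13 and Tlr9 turned over between the fractions. Their log2 ratio within a library was 9.33 to 10.9 in GFP-positive and -5.57 to -2.81 in GFP-negative libraries, with counts raised by 0.5, which sets the size wherever Tlr9 or Tlr13 had 0 counts, including every GFP-positive library. The exact permutation p was 0.1, the smallest possible (0.25 adjusted over 5 ratios). Since Tlr13 lay above and Tlr9 below without overlap, this separation and its p were fixed by the single genes and add no support. The log2 ratio of Tlr7 to Tlr9 was 1.58 to 10.9 against 0.99 to 2.96 and overlapped (exact permutation p = 0.2). In the same libraries the B cell markers were at 93.0 to 170.2 against 13208 to 14433 CPM. The plasmacytoid dendritic cell list summed to 94.9 to 153.7 against 1162 to 1468 CPM, with 2 of 4 tested members lower and Klk1 at 0 everywhere. Its most abundant member was Ly6d, which B cells also express, and Siglech, which marks plasmacytoid cells, held 32, 90 and 0 counts in GFP-positive and 214, 0 and 1 in GFP-negative libraries.

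Beyond the 10 receptors, the mouse genes Tlr11 and Tlr12 were also in the table and were named after their values were seen. Tlr11 had 0 counts in every library. Tlr12, an endosomal receptor for profilin of protozoan parasites, held 325, 257 and 533 counts in GFP-positive and 95, 82 and 109 in GFP-negative libraries. Its groups did not overlap, and the log2 fold change of 2.19 ± 0.64 (SE) did not pass with edgeR (adjusted p = 0.0586) and passed with DESeq2 (2.8e-05).

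Per kilobase of exon, a scale on which genes can be compared, the order of the receptors differed between the fractions. In GFP-positive libraries Tlr2 stood first at 21.9 ± 7.24 CPM per kilobase (SD, n = 3), with its lowest library at 13.6 and the highest library of any other receptor, one of Tlr7, at 14.7. Tlr13 followed at 8.45 ± 3.92, then Tlr7 at 6.87 ± 7.39, Tlr3 at 6.14 ± 0.42 and Tlr4 at 4.70 ± 4.08. Each neighbouring pair among these 4 overlapped in its range over libraries. Tlr8, Tlr6 and Tlr1 lay at 1.11 ± 1.92, 0.995 ± 1.39 and 0.977 ± 1.28 and cannot be ordered, since each includes a library at 0. In GFP-negative libraries Tlr1 stood first at 9.98 ± 2.06 and Tlr2 second at 5.99 ± 3.79, with overlapping ranges. Tlr3, Tlr4, Tlr7 and Tlr9 lay at 1.94 ± 3.32, 1.48 ± 1.44, 1.20 ± 1.01 and 0.523 ± 0.539, again with overlapping neighbours, and Tlr13 and Tlr8 lay under 0.04 in every library.

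**Figure D3:**
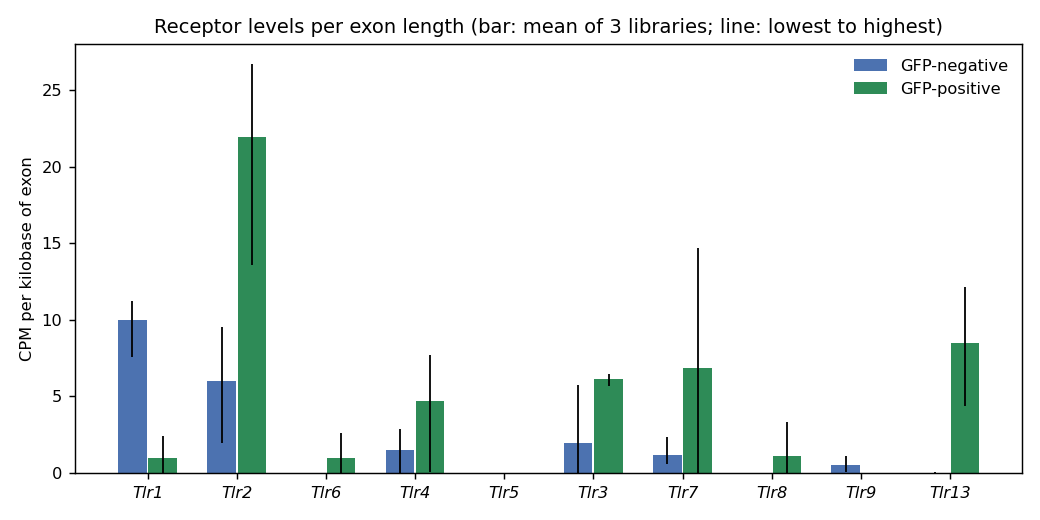
CPM per kilobase of exon (vertical axis) for each receptor, as bars of the mean of 3 libraries with lines from the lowest to the highest library. Blue is GFP-negative and green GFP-positive. Tlr1 is first in the GFP-negative group at 9.98 and Tlr2 first in the GFP-positive group at 21.9, and the lines of Tlr4 and Tlr7 reach almost to 0 in GFP-positive libraries.

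Uneven counts between libraries of 1 group were common among the receptors. For 6 of the 10 (Tlr1, Tlr3, Tlr4, Tlr6, Tlr7 and Tlr8), 1 library of a group held at most 3 counts while another of the same group held at least 100. This held for 4 of the 6 tested receptors (66.7%) and for 13.7% of all 12122 genes tested. Among the 2944 tested genes with a mean between 16.5 and 42.1 CPM, the range of the tested receptors, it held for 7.54%. The libraries near 0 were not the same for each receptor. GFP-positive library 2 held 1 count of Tlr7, and library 3 held 0 counts of Tlr1. For Tlr4, GFP-negative library 3 met the threshold with 2 counts, while GFP-positive library 1, at 5 counts, was low but above it. The thresholds of 3 and 100 counts were chosen after the values were seen. The total counts of GFP-positive libraries 1 to 3 were 16766556, 17306500 and 17849620. Their Kupffer cell markers summed to 14084 to 15138 CPM. The part of depth and of cell types in these gaps was not tested.

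The genes that serve the receptors were read from 7 lists of 95 genes, of which 94 were in the table and 86 were tested. Of these 86, 14 were called higher and 23 lower in GFP-positive libraries, against backgrounds of 7.65% and 10.1% of all genes tested, and their median log2 fold change was -0.11 against -0.09 over all genes.

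Of 8 accessory and co-receptor genes, 3 were called higher, 2 lower and 3 did not pass (median log2 fold change 1.28). Cd14, which hands lipopolysaccharide to Tlr4, held 845, 672 and 1048 counts in GFP-positive and 220, 77 and 79 in GFP-negative libraries. Its rise was 2.97 ± 0.59 on the log2 scale (SE), with an edgeR adjusted p of 0.0174. The call was lost without GFP-negative library 2 or 3 (adjusted p = 0.0699 and 0.0556), and the log2 fold change was 3.69 without GFP-negative library 1. Ly96, the MD-2 subunit that binds lipopolysaccharide with Tlr4, rose by 1.90 ± 0.35 (adjusted p = 0.0130, lost without GFP-negative library 2 or 3 at 0.0559 and 0.0567). Cd14 and Ly96 were thus higher in every GFP-positive library, including library 1, where Tlr4 held 5 counts. Cd36, a scavenger receptor that aids Tlr2 and Tlr6, stood at 739.8 ± 94.7 against 158.1 ± 36.5 CPM (SD, n = 3 each; adjusted p = 0.000863). Cd180, a Tlr4-like receptor of B cells and other leukocytes, was lower by a log2 fold change of -2.29 ± 0.63 (adjusted p = 0.0463). This call held only without GFP-positive library 1, and was lost in the other 5 such fits (0.0848 to 0.186) and without the filter (0.0835). Without GFP-negative library 2 or 3, 2 of this list were called. Rftn1, a raft protein that aids uptake of Tlr3 and Tlr4, fell by 1.27 ± 0.16 (adjusted p = 0.00260).

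Of 16 genes of receptor trafficking and processing, 5 were called higher, 2 lower and 9 did not pass (median 0.64). The endosomal proteases led the higher ones. Ctsb, cathepsin B, stood at 6613 ± 623 against 1093 ± 201 CPM (SD, n = 3 each; edgeR adjusted p = 0.000125). Ctsl, cathepsin L, rose by 1.78 ± 0.09 on the log2 scale (SE), Ctss, cathepsin S, by 1.28 ± 0.11, and Lgmn, asparagine endopeptidase, by 1.85 ± 0.13 (adjusted p = 5.3e-05, 0.000559 and 0.000211). Unc93b1, the chaperone that carries the endosomal receptors out of the endoplasmic reticulum, stood at 401.1 ± 52.1 against 583.1 ± 58.8 CPM. Its log2 fold change of -0.54 ± 0.14 passed (adjusted p = 0.0426), but the call held only without GFP-positive library 3 among the 6 fits on 5 libraries (0.0954 to 0.137 in the others), and was lost without the filter (0.0616). Slc15a4, a lysosomal transporter needed for Tlr7 and Tlr9 signalling, fell by 1.94 ± 0.31 (adjusted p = 0.00777).

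Of 6 tested genes listed as adaptors, 0 were called higher and 2 lower (median -0.28). Pik3ap1, an adaptor to PI3 kinase that B cells use, fell by 2.42 ± 0.35 on the log2 scale (edgeR adjusted p = 0.00542). Bcap31 fell by 0.82 ± 0.15 (adjusted p = 0.0111). It is an endoplasmic reticulum protein rather than an adaptor of these receptors, and the count and median of the list include it. Myd88, the adaptor of all these receptors except Tlr3, stood at 81.2 ± 12.1 in GFP-positive libraries and 59.3 ± 10.1 CPM in the GFP-negative ones (SD, n = 3 each; adjusted p = 0.283). Ticam1, which encodes TRIF, the adaptor of Tlr3, held 0, 50 and 85 counts in GFP-positive and 207, 195 and 905 in GFP-negative libraries (adjusted p = 0.272). Of 18 tested kinases and ubiquitin ligases, 1 was called higher and 4 lower (median -0.35). Irak2, a kinase of the MyD88 complex, fell by 2.29 ± 0.45 (adjusted p = 0.0163), and Peli1, a ubiquitin ligase, by 1.70 ± 0.24 (adjusted p = 0.00491). Ikbkb, the IKK-beta kinase, fell by 1.42 ± 0.27 (adjusted p = 0.0144). The call of Irak2 was lost without GFP-negative library 1 or 3 or GFP-positive library 2 (0.0506 to 0.0689), and that of Ikbkb without GFP-negative library 1 (0.0607). The 1 higher gene was Ube2n, a ubiquitin-conjugating enzyme, at 0.78 ± 0.20 (adjusted p = 0.0373), a call lost whichever library was left out (0.0598 to 0.102). Of this list 5 were called with all libraries, 1 without GFP-negative library 1, 3 without library 2, 2 without library 3, and 3 without GFP-positive library 1 or 3.

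Inhibitors and transcription factors of the pathway were mostly lower where they were called. Of 14 tested negative regulators, 6 were called lower and 1 higher (median -1.41). Irak3, a kinase-like inhibitor found mainly in myeloid cells, stood at 22.8 ± 4.62 against 105.6 ± 24.6 CPM (SD, n = 3 each; edgeR adjusted p = 0.00447). Nfkbia, the inhibitor of NF-kappaB, fell by 1.62 ± 0.18 on the log2 scale (SE; adjusted p = 0.00184), and Dusp1, a phosphatase of MAP kinases, by 2.48 ± 0.30 (adjusted p = 0.00235). The 1 higher gene was Cd300a, an inhibitory receptor of myeloid cells, at 4.86 ± 0.41 (adjusted p = 0.000490). Of 11 transcription factors, 6 were called lower and 1 higher (median -1.31). Rel, an NF-kappaB subunit abundant in lymphocytes, held 55, 17 and 13 counts in GFP-positive and 2437, 2646 and 2511 in GFP-negative libraries (log2 fold change -6.22 ± 0.68, or -7.20 without GFP-positive library 1; adjusted p = 0.00164). Fos and Jun, subunits of AP-1, fell by 4.43 ± 0.34 and 3.53 ± 0.18 (adjusted p = 0.000334 and 5.8e-05), and Rela by 1.61 ± 0.17 (adjusted p = 0.00134). Irf7, which drives interferon genes downstream of Tlr7 and Tlr9, rose by 2.13 ± 0.27 (adjusted p = 0.00285). The B cell markers had a median log2 fold change of -6.93 in these libraries, and their part in these values was not tested.

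Of 18 genes known to be induced through these receptors, 13 were tested, of which 3 were called higher and 1 lower (median 1.38). Il1b, the cytokine interleukin-1 beta, held 1553, 2423 and 1513 counts in GFP-positive and 9, 36 and 270 in GFP-negative libraries. Its rise was 4.49 ± 1.10 on the log2 scale (SE), with an edgeR adjusted p of 0.0322. Leaving out GFP-negative library 2 ended the call (edgeR adjusted p = 0.108), as did leaving out any of the GFP-positive ones (0.0598 to 0.0780). Leaving out GFP-negative library 3 gave a log2 fold change of 6.45. Tnfaip2 and Marcks, genes of macrophages among others, rose by 3.03 ± 0.51 and 1.74 ± 0.25 (adjusted p = 0.00962 and 0.00505), the former with 0.0502 without GFP-negative library 2. Tnf had the opposite direction to Il1b. It held 0, 1 and 0 counts in GFP-positive and 180, 75 and 219 in GFP-negative libraries, and the GFP-negative mean was 393.3 times the pooled GFP-positive level of 1 count over the summed library sizes (exact 95% counting interval 70.6 to 15533). Its call (adjusted p = 0.0226) held without GFP-positive library 2 (0.0442, with a log2 fold change of -10.18 against -8.19) and was lost without any other library (0.0557 to 0.0881). Of these targets 1 was called on leaving out GFP-negative library 2, 2 on leaving out GFP-positive library 1 or 3, and 7 by DESeq2. Il12b and Ifnb1 had 0 counts in every library.

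**Figure D4:**
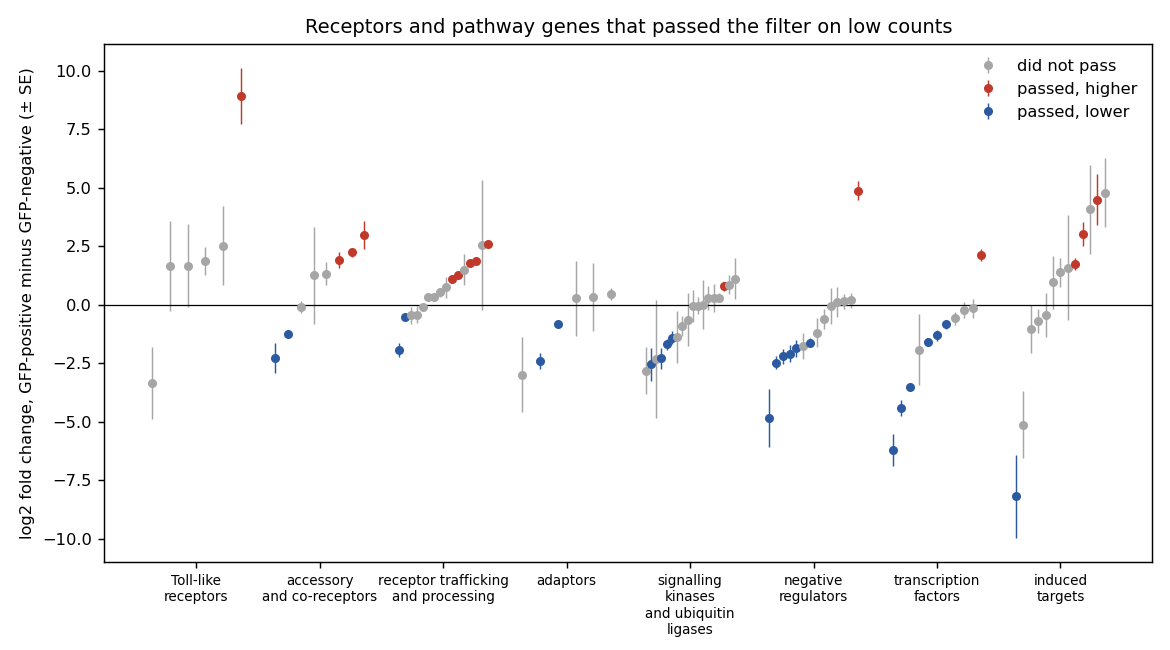
Log2 fold change, GFP-positive minus GFP-negative, with its SE (vertical axis), of the 6 tested receptors and the tested genes of 7 pathway lists, ordered by value within a list. Red points passed the test as higher, blue points as lower, and grey points did not pass. Tlr13, at 8.92, is the only receptor in colour, and 6 of 11 transcription factors are blue.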

How the data were processed

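Poly-A RNA libraries were made from CD31-enriched liver cells sorted by GFP, per the labels' protocols, with PCR but no molecular identifiers. Raw counts for all genes were deposited by the authors as 1 table. Tools in the submitters' processing notes are edgeR, HTSeq 0.6.1, TopHat2 2.0.12, RSEM, Bowtie2 2.2.3 and DESeq 1.18.0, with no roles. Genome build, annotation and strand setting were not given in the sources used here.

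Symbols were matched for 34490 of 35275 identifiers. The fit used edgeR 4.0.16 under R 4.3.3: filterByExpr with a minimum count of 10, TMM scaling, robust dispersions and the quasi-likelihood test, GFP-positive against GFP-negative, adjusted over all genes tested. Every adjusted p printed without a tool is from this edgeR fit. CPM use TMM library sizes. Standard errors are the log2 fold change over the square root of F. The common dispersion gave a biological coefficient of variation of 0.816. The code was tested on simulated data. Exon lengths came from GENCODE M21. DESeq2 1.42.0, other scalings, no filter, left-out lymphocyte genes and left-out libraries were tried as alternatives. Left-out fits applied the filter anew.

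The receptors and lists were chosen with earlier results of these data known. Named were all receptors and, from each pathway list, the 4 members with the smallest p and those called against the list's direction. Lilrb4a and Ighd had no identifier. Intervals and floors cover counting error only.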

Additional observations from a re-analysis of the deposited data

How the results depend on the processing

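With edgeR 2157 of 12122 genes passed, with DESeq2 3782 of 13339, and when 1 library was left out 994 to 1810 of 12714 to 12964, with the lowest counts without GFP-negative library 1, 2 or 3 (994, 1027 and 1045). Of the receptors, 1 was called by edgeR, 4 by DESeq2 (Tlr2, Tlr6, Tlr9 and Tlr13), and 1 to 2 with 1 library left out, where the second was Tlr3 without GFP-negative library 1. Of the pathway genes, 37 were called, and 25 to 32 with 1 library left out. Tlr13 passed under every alternative tried (log2 fold change 8.33 to 10.15), and the direction of the 6 tested receptors did not change under any that gave a value, DESeq2 giving no adjusted p for Tlr3. Without the filter, the log2 fold change of Tlr8 was 6.68 and ran from -2.54 (without GFP-positive library 3) to 7.27 with 1 library left out, and those of Tlr6 and Tlr9 kept their sign. The other scalings moved the median log2 fold change of all genes by at most 0.026. The difference between the groups in the log2 ratio of Tlr4 to Tlr2 was -0.38 and ran from -3.10 to 1.64 with 1 library left out, and that of Tlr7 to Tlr8 was -1.75 and ran from -4.95 to 0.000392. The other 3 ratios kept their sign in such fits and with 1 in place of 0.5 added to the counts. The cause of these shifts was not tested. No paired analysis was possible because the labels share no replicate number between the groups. Depth limits Tlr5, Tlr6, Tlr8, Tlr9 and Tlr13, which lie at or near the floor in at least 1 group.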
